A study of Mus musculus with 2 samples.

Results

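The genes described here are markers of disease-associated microglia, and they were followed through single-cell RNA-seq libraries of the hippocampus of aged mice. They are 10 genes chosen by name, Trem2, Tyrobp, Apoe, Cst7, Clec7a, Itgax, Lpl, Spp1, Axl and Gpnmb, and were found by their symbols with no use of measured values. Of the 19059 genes listed for both libraries, 9 were members of this group. Clec7a, which encodes the receptor dectin-1, had no row and was not analysed here.

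Microglia are the resident macrophages of the brain. In mouse models of neurodegeneration and in old age, some of them lower the genes of the resting state, such as P2ry12 and Tmem119, and raise genes for lipid handling, lysosomes and phagocytosis, a state called disease-associated microglia (DAM). TREM2, a surface receptor for lipids and lipoproteins such as APOE, signals through the adaptor TYROBP (DAP12). An early step of the change does not need TREM2, and a later step, which includes Cst7, Itgax, Lpl, Spp1, Axl and Gpnmb, does.

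Both groups were wild-type C57BL/6 mice, which started the diets at 21 months of age and stayed on them for 3 months. Control mice were given standard chow, and tomatidine mice were given the same kind of chow with 0.05% tomatidine, a steroidal alkaloid from tomato plants. The frozen hippocampi of 4 mice were pooled per group into 1 library, and the study's methods name mice of both sexes. Probe pairs read the RNA of fixed cells in this assay and their number differs between genes, so levels were compared between cells within a gene and never between genes.

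With 1 library per diet there was no replicate spread, no test was possible, and the diet cannot be told apart from the library. Levels are UMIs of a gene per 1000000 UMIs of the cells counted (CPM). Intervals given here are 95% intervals that cover counting error only, exact for levels, ratios and shares and approximate for differences of shares. The control library kept 15115 cells with a median of 7077 UMIs (unique molecules counted), and the tomatidine library kept 14502 cells with a median of 7399.5. They shared 292 cell barcodes, 1.84% and 1.92% of their deposited cells.

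Microglia-like cells numbered 947 in the control library (6.27% of kept cells, 5.88 to 6.66) and 831 in the tomatidine library (5.73%, 5.36 to 6.12). Of the 15 microglial markers used, 14 had a row and each of these was higher in microglia-like cells than in all other cells by more than 2 fold in both libraries, up to 213 fold in control (Tmem119) and 210 fold in tomatidine (Selplg). The cells had a median of 3340 UMIs in control and 3154 in tomatidine. They formed 3 clusters, here called by leading genes the Selplg/P2ry12 cluster (578 control and 508 tomatidine cells), the Ctss/Lag3 cluster (274 and 239 cells, with the lowest depth, medians of 1298.5 and 1195 UMIs) and the Ccl12/Gpr84 cluster (95 and 84 cells, with the highest depth, 8332 and 6749.5 UMIs). In the Ccl12/Gpr84 cluster 10 of 10 oligodendrocyte markers were raised along with the microglial ones. At least 1 UMI of a Y-linked gene was present in 53.0% and 52.8% of the microglia-like cells.

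A separate cluster of 157 control and 127 tomatidine cells was led by H2-Ab1, Mrc1 and Cd163, genes of antigen presentation and of border macrophages. It raised 14 of 14 microglial and 8 of 8 border macrophage markers, so it was given no cell type name and is called the H2-Ab1/Mrc1/Cd163 cluster. Of its cells, 33 in control and 25 in tomatidine carried at least 2 T cell markers. Of the others, 72 and 79 carried at least 2 border macrophage markers, and 52 and 23 carried neither set. The members reached some of their highest levels there, so its values are given beside those of the microglia-like cells.

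Of the 9 members, 5 had their highest level among the 9 named cell classes in microglia-like cells in both libraries, which were Trem2, Tyrobp, Cst7, Itgax and Lpl. Apoe was highest in astrocyte-like cells, Spp1 and Axl in fibroblast-like cells, and Gpnmb in oligodendrocyte precursor (OPC)-like cells. The H2-Ab1/Mrc1/Cd163 cluster has no class name and was not ranked. By CPM it lay above each of the 9 named classes in both libraries for Apoe, Cst7, Itgax, Lpl, Spp1, Axl and Gpnmb. For Spp1 this rested largely on 1 cell per library, which held 78.2% of its control and 44.9% of its tomatidine UMIs. For Cst7 in tomatidine, the intervals of the cluster and of microglia-like cells overlapped. Between the diets, 2 members lay past the fold used here, a log2 ratio of 0.5 in either direction, in microglia-like cells. Both were higher in tomatidine (Spp1 and Gpnmb) and 0 members were lower, where 3.33% of 9966 genes lay past the fold upward and 1.25% downward. The median log2 ratio was 0.19 over the members and 0.03 over the 9966 genes.

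**Figure D1:**
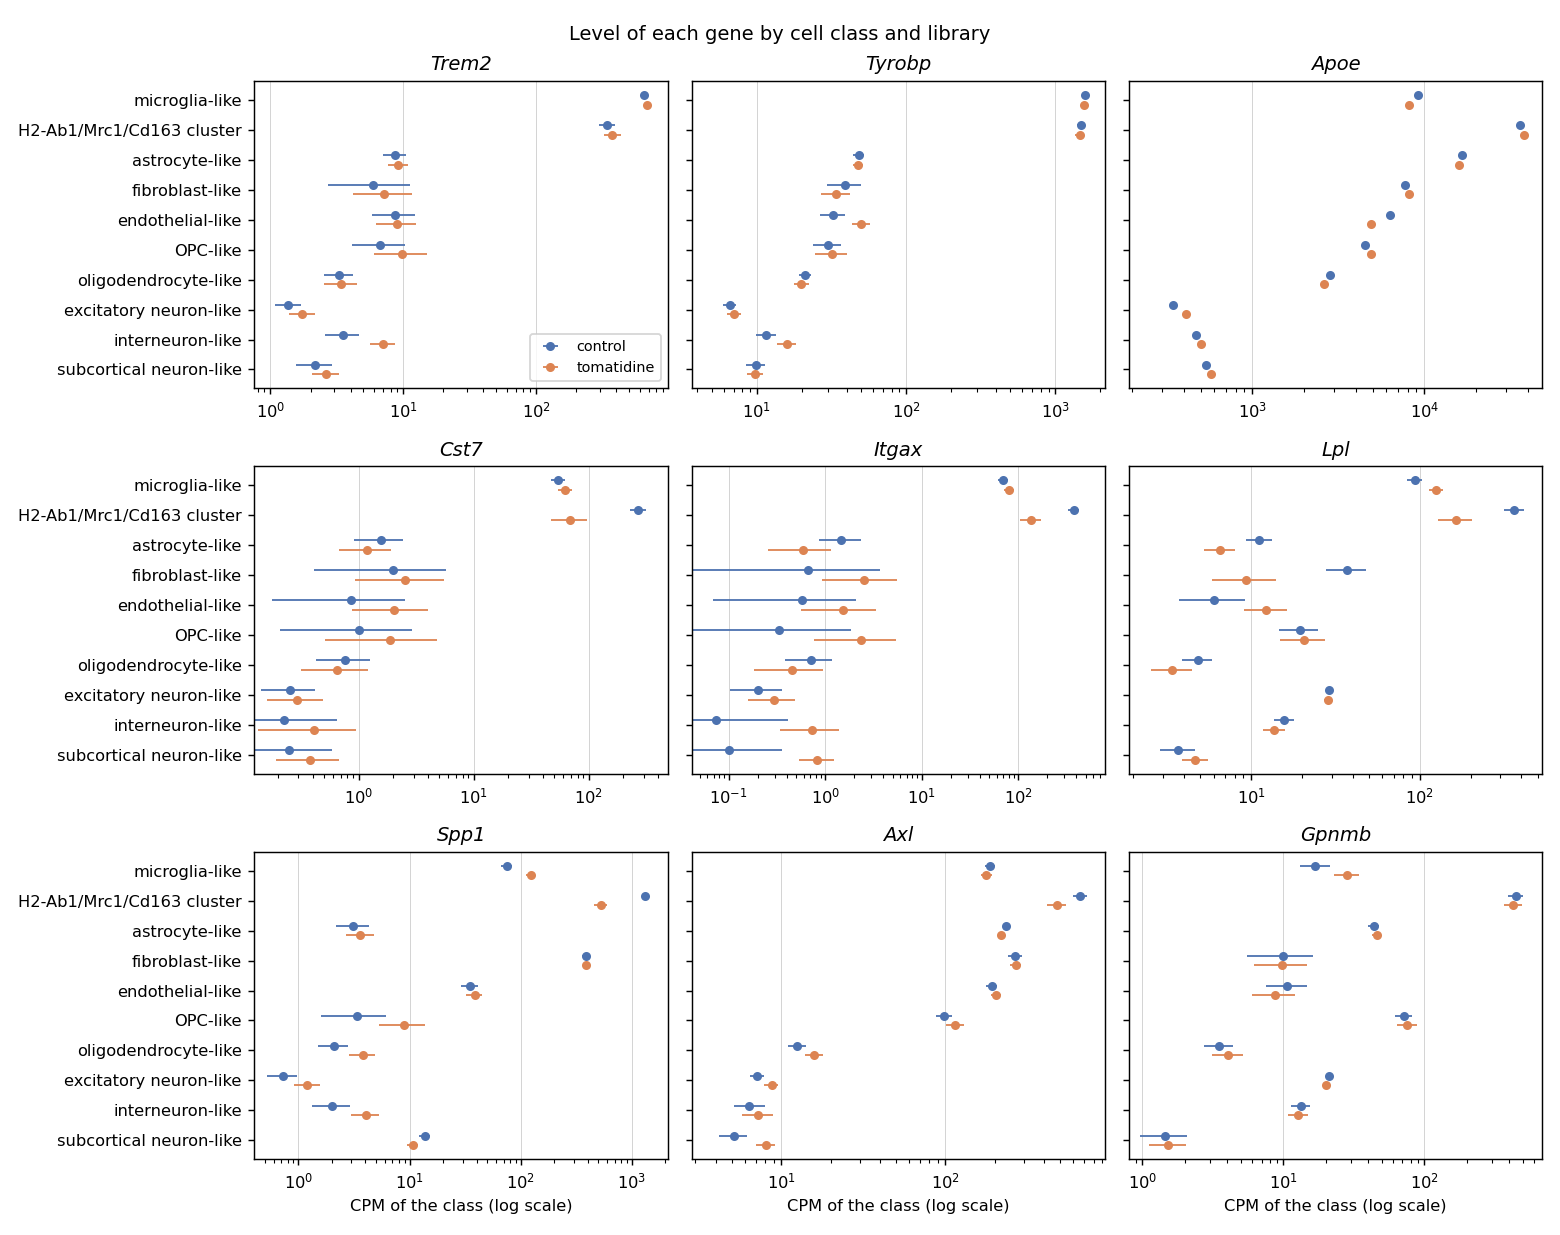
Level of each of the 9 measured genes by cell class, in CPM (log axis), with exact 95% counting intervals as bars, control in blue and tomatidine in orange. Trem2, Tyrobp, Cst7, Itgax and Lpl were highest among the named classes in microglia-like cells, and Cst7, Itgax, Lpl and Spp1 were higher in the control than in the tomatidine library in the H2-Ab1/Mrc1/Cd163 cluster.

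Trem2 (ENSMUSG00000023992, chromosome 17, 48346401 to 48354147 on the plus strand of GRCm38) encodes the receptor of the pathway. Its level in microglia-like cells was 642 CPM in control (617 to 667, from 2587 UMIs) and 678 CPM in tomatidine (650 to 706, from 2268 UMIs). At least 1 UMI was found in 74.0% and 74.6% of these cells, or 59.4% and 61.7% with every cell thinned to 1500 UMIs. The log2 ratio of tomatidine over control was 0.08 (-0.00 to 0.16), and it was -0.07 (-0.15 to -0.00) with a marker gate in place of clusters. The next classes, astrocyte-like, endothelial-like, OPC-like and fibroblast-like cells, lay between 5.92 and 9.79 CPM and were not in a clear order. Neurons should lack Trem2, and 2.07% and 2.18% of excitatory neuron-like cells carried a UMI at medians of 14178 and 13092 UMIs per cell, or 0.30% in each library after thinning.

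Tyrobp (ENSMUSG00000030579, chromosome 7, 30413760 to 30417585, plus strand) encodes the adaptor through which TREM2 and other receptors signal. It reached 1587 CPM in control microglia-like cells and 1543 CPM in tomatidine ones, a log2 ratio of -0.04 (-0.09 to 0.01). Shares of positive cells were 90.5% and 88.2%, or 83.1% and 79.7% after thinning, a difference of -3.42 points (-7.50 to 0.61). The adaptor had a UMI in most microglia-like cells of both libraries. Its next class was astrocyte-like at 47.8 to 48.3 CPM, and endothelial-like cells overlapped it at 32.1 to 50.1 CPM. Excitatory neuron-like cells held a UMI in 8.22% and 7.87% of cells, or 1.30% and 1.35% after thinning.

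Apoe (ENSMUSG00000002985, chromosome 7, 19696109 to 19699188, minus strand) encodes the main lipoprotein component of the brain, which astrocytes secrete. Astrocyte-like cells had 16010 to 16622 CPM over the 2 libraries. Microglia-like cells had 9129 CPM in control (9036 to 9223) and 8152 CPM in tomatidine (8055 to 8249), a log2 ratio of -0.16 (-0.19 to -0.14). Fibroblast-like cells, at 7711 to 8198 CPM, overlapped the microglia-like range. Apoe was found in 92.5% and 90.6% of microglia-like cells, but 85.2% of excitatory neuron-like cells in each library also carried a UMI, or 32.6% and 34.5% after thinning. Per 1000 UMIs of 6 astrocyte genes, Apoe stood at 605 and 604 in astrocyte-like cells and at 3484 and 2552 in microglia-like cells, so the 2 classes did not hold it in a common ratio. A raised ratio was not particular to microglia-like cells. It was 2052 and 1677 in oligodendrocyte-like and 1678 and 1606 in fibroblast-like cells. OPC-like (1090 and 1090) and endothelial-like cells (739 and 794) were also above the astrocyte-like ratio, and the neuron-like classes were below it. In both libraries the H2-Ab1/Mrc1/Cd163 cluster was the highest of all clusters for Apoe, at 35775 CPM in control and 37821 CPM in tomatidine.

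Lpl (ENSMUSG00000015568, chromosome 8, 68880491 to 68907448, plus strand) encodes lipoprotein lipase, which frees fatty acids from lipoproteins. Its level in microglia-like cells was 93.5 CPM in control (84.3 to 103, from 377 UMIs) and 125 CPM in tomatidine (114 to 138, from 419 UMIs). The log2 ratio was 0.42 (0.22 to 0.63), under the fold used here. Positive cells did not follow the ratio, at 13.9% and 15.4% (thinned 8.47% and 9.11%, a difference of 0.63 points, -2.30 to 3.64). A single tomatidine cell held 121 of the 419 UMIs, or 28.9%, and without the top cell of each library the ratio was 0.21 (-0.02 to 0.44). With a marker gate in place of clusters it was -0.20 (-0.35 to -0.05). The next class was excitatory neuron-like at 28.5 to 29.0 CPM, where 1 cluster of 351 and 297 cells (led by Cldn22 and Cd109) reached 161 and 147 CPM with a UMI in 70.7% and 73.1% of its cells. That neuronal cluster lay above the microglia-like class in both libraries.

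Cst7 (ENSMUSG00000068129, chromosome 2, 150570415 to 150578944, plus strand) encodes cystatin F, an inhibitor of lysosomal proteases. In microglia-like cells it had 54.3 CPM in control (47.4 to 62.0, 219 UMIs) and 61.9 CPM in tomatidine (53.7 to 70.9, 207 UMIs), a log2 ratio of 0.19 (-0.09 to 0.47). It was found in 14.9% and 12% of cells, or 7.38% and 6.93% after thinning. The sign depended on which cells were counted, since the ratio was -0.35 with no doublet removal, -0.37 with coarser clusters, -0.31 with a marker gate and -0.39 together with the H2-Ab1/Mrc1/Cd163 cluster. Cst7 was low in the other named classes, which lay at or under 2.54 CPM, and 0.46% and 0.30% of excitatory neuron-like cells held a UMI. Microglia-like cells exceeded the next named class, fibroblast-like cells, by at least 21.4 fold. The unranked H2-Ab1/Mrc1/Cd163 cluster lay above them, at 269 CPM in control and 68.7 CPM in tomatidine. Its tomatidine interval (47.0 to 97.0 CPM) overlapped that of the microglia-like cells.

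Itgax (ENSMUSG00000030789, chromosome 7, 128129547 to 128150657, plus strand) encodes CD11c, an integrin subunit of dendritic cells and activated microglia. Its levels in microglia-like cells were 69.0 CPM in control (61.1 to 77.6, 278 UMIs) and 79.8 CPM in tomatidine (70.5 to 90.0, 267 UMIs), a log2 ratio of 0.21 (-0.04 to 0.46). Positive cells made up 13.3% and 13.7%, or 7.52% and 8.46% after thinning. The Itgax ratio likewise changed sign, at -0.21 with no doublet removal, -0.31 with coarser clusters, -0.36 with a marker gate and -0.33 together with the H2-Ab1/Mrc1/Cd163 cluster. Like Cst7, Itgax was low in the other named classes, at or under 2.54 CPM. Excitatory neuron-like cells had a UMI in 0.37% and 0.26% of cells.

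Axl (ENSMUSG00000002602, chromosome 7, 25757273 to 25788705, minus strand) encodes a receptor tyrosine kinase that recognises dying cells. In microglia-like cells it had 188 CPM in control (174 to 201) and 178 CPM in tomatidine (164 to 193), a log2 ratio of -0.08 (-0.23 to 0.08), with positive shares of 30.3% and 31.3% (20.2% and 19.8% after thinning). It did not mark microglia among the named classes. Fibroblast-like cells had 266 to 268 CPM, astrocyte-like cells 218 to 233, endothelial-like cells 191 to 202 and OPC-like cells 98.3 to 115. Mural-like cells, only 38 and 39 in number and so outside the ranking, had 552 and 736 CPM.

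Spp1 (ENSMUSG00000029304, chromosome 5, 104435118 to 104441050, plus strand) encodes osteopontin, a secreted phosphoprotein. Its levels in microglia-like cells were 74.7 CPM in control (66.5 to 83.6, 301 UMIs) and 123 CPM in tomatidine (111 to 135, 411 UMIs), a log2 ratio of 0.72 (0.50 to 0.94). Yet only 5.28% of control cells (3.94 to 6.90) and 4.33% of tomatidine cells (3.05 to 5.95) carried a UMI, or 2.91% and 2.46% after thinning. The share of positive cells was not higher in the tomatidine library, with a thinned difference of -0.45 points (-2.17 to 1.32). Among the named classes fibroblast-like cells had the highest level at 386.7 to 387.7 CPM with 26.8% and 28.3% of cells positive. Endothelial-like cells followed microglia-like ones at 34.7 to 38.4 CPM, and excitatory neuron-like cells had a UMI in 1.19% and 1.63% of cells, or 0.14% and 0.24% after thinning.

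Gpnmb (ENSMUSG00000029816, chromosome 6, 49036546 to 49070929, plus strand) encodes a membrane glycoprotein of lysosome-rich phagocytes and pigment cells. It had the fewest UMIs of the members in microglia-like cells, with 68 UMIs and 16.9 CPM in control (13.1 to 21.4) and 94 UMIs and 28.1 CPM in tomatidine (22.7 to 34.4). The log2 ratio was 0.74 (0.27 to 1.21), and positive cells were 3.06% and 3.97% (1.64% and 2.33% after thinning, a difference of 0.69 points, -0.79 to 2.29). Excitatory neuron-like cells overlapped this level at 20.2 to 21.2 CPM, with 17.8% of cells positive in each library, or 2.94% and 3.09% after thinning. These thinned shares were above those of microglia-like cells in both libraries. By level, the control intervals overlapped (20.1 to 22.4 CPM in the neurons), and in tomatidine the microglia-like level was above that of the neurons (19.0 to 21.6 CPM). Among the named classes OPC-like cells had the highest level, 71.2 to 75.5 CPM, followed by astrocyte-like cells at 43.7 to 45.9 CPM. An astrocyte-like cluster led by Myoc and Thbs4 reached 154 CPM in control and 229 CPM in tomatidine.

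The higher Spp1 level in tomatidine microglia-like cells rested on very few cells. Of the 301 control UMIs 1 cell held 88 (29.2%), and of the 411 tomatidine UMIs 1 cell held 204 (49.6%). A share of 50% of the Spp1 UMIs lay in 3 control cells and in 2 tomatidine cells, against 162 and 150 cells for Trem2 and 170 and 138 for Tyrobp. Without the top cell of each library the Spp1 log2 ratio was 0.23 (-0.06 to 0.51), no longer past the fold. The tomatidine cell with 204 Spp1 UMIs had 8497 UMIs in all, 9 microglial markers, 33 Lpl, 12 Itgax, 5 Axl and 10 Gpnmb UMIs, and 0 of Cst7. It belonged to the Ccl12/Gpr84 cluster, and without that cluster the Spp1 ratio turned to -0.10 (-0.39 to 0.19). Within the clusters, Spp1 stood at 65.6 and 72.9 CPM in the Selplg/P2ry12 cluster, at 124 and 39.7 CPM in the Ctss/Lag3 cluster, and at 78.9 and 317 CPM in the Ccl12/Gpr84 cluster. The Gpnmb ratio was 0.83 (0.33 to 1.34) without the top cells, and 5 control and 6 tomatidine cells held 50% of its UMIs. Which cells were counted decided both signs. The Spp1 ratio was -0.46 with no doublet removal, -0.47 with coarser clusters and -0.48 with a marker gate in place of clusters, and the Gpnmb ratio was -0.85 with no integration of the libraries.

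**Figure D2:**
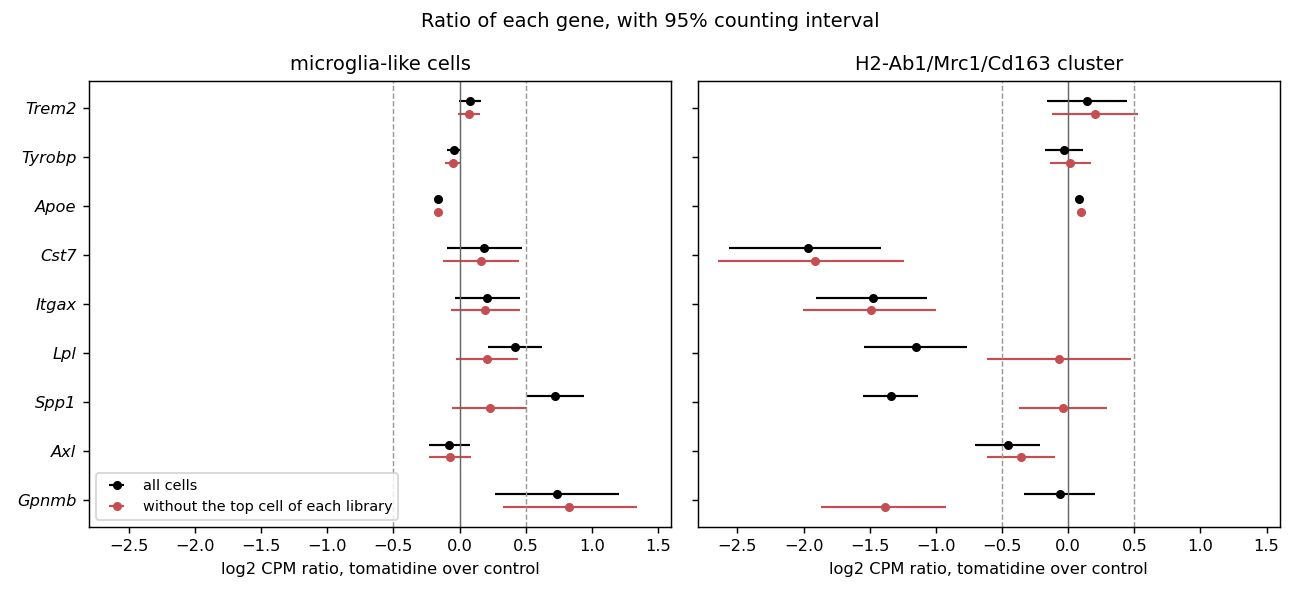
Log2 ratio of tomatidine over control for each gene in microglia-like cells (left) and in the H2-Ab1/Mrc1/Cd163 cluster (right), with 95% counting intervals, for all cells (black) and without the 1 cell of each library that held the most UMIs of that gene (red); dashed lines mark the fold of 0.5. In microglia-like cells Spp1 moved from 0.72 to 0.23 without its top cells, and in the other cluster Lpl and Spp1 moved from -1.15 and -1.34 to -0.07 and -0.04 while Cst7 and Itgax stayed under -1.

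**Figure D3:**
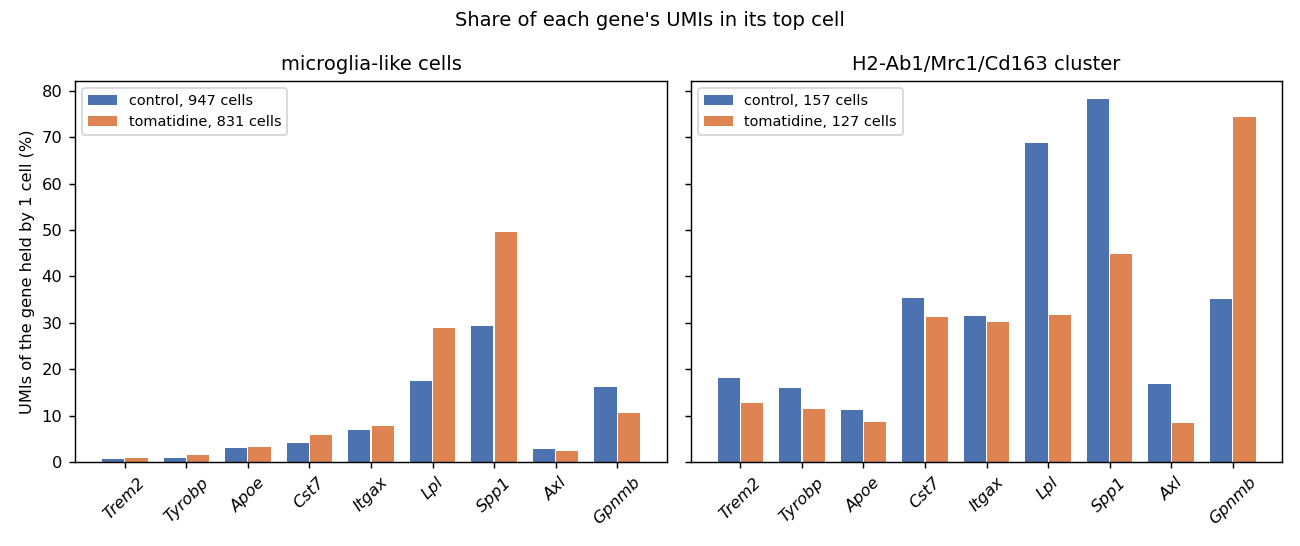
Share of each gene's UMIs held by its top cell (percent, bars from 0), in microglia-like cells (left) and in the H2-Ab1/Mrc1/Cd163 cluster (right), control in blue and tomatidine in orange. The share was under 2% for Trem2 and Tyrobp in microglia-like cells, 29.2% and 49.6% for Spp1 there, and 78.2% for Spp1 in the control cells of the other cluster.

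The 6 later-step genes that were measured (Cst7, Itgax, Lpl, Spp1, Axl and Gpnmb, here called activation genes) tended to occur in the same microglia-like cells. Each of their 15 pairs was found together in more cells than expected from each gene's own share within 5 bins of depth, in both libraries, and 8 pairs exceeded the expectation at least 2 fold in both. Cst7 and Itgax shared 53 control cells where 23.0 were expected and 42 tomatidine cells where 15.8 were expected. For Itgax with Spp1 the ratio of observed to expected cells was 3.09 and 3.55, and for Lpl with Spp1 it was 3.30 and 2.90. Pairs that held Trem2, Tyrobp or Apoe lay close to 1, between 0.92 and 1.10. Trem2, Tyrobp and Apoe were found in most cells, which leaves little room for a ratio above 1. Pairs of other genes with like shares of positive cells were not computed, so how often such pairs lie above 1 is not known here. These ratios are descriptions without a test, and cells of 1 library share their mice and their free RNA.

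**Figure D4:**
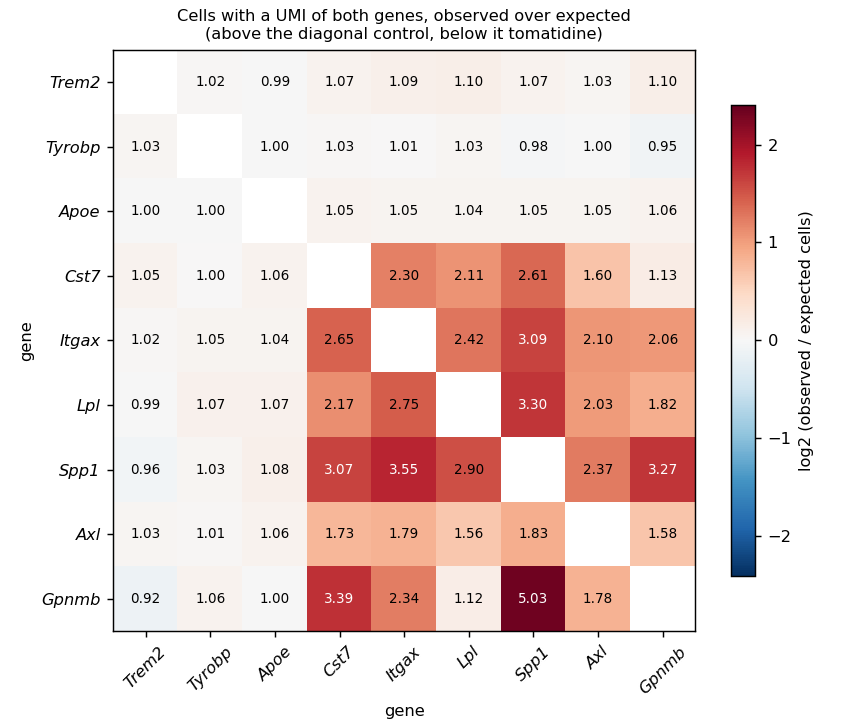
Microglia-like cells with a UMI of both genes of a pair, observed over expected within bins of depth (numbers; colour on a log2 scale), with control above the diagonal and tomatidine below it. Pairs among Cst7, Itgax, Lpl, Spp1, Axl and Gpnmb all lay above 1, up to 5.03 for Spp1 with Gpnmb in tomatidine, and pairs with Trem2, Tyrobp or Apoe lay between 0.92 and 1.10.

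Cst7, Itgax and Spp1 are 3 activation genes from 3 chromosomes that shared cells, and the promoters of these genes are shown for that reason. The 250 bases before the start site are printed 5′ to 3′ on the strand of the gene, from RefSeq on GRCm38.p6. Capitals mark a match to all of GAGGAAGT on either strand, a form of the binding site of PU.1, a factor that macrophages need. Shorter or variant forms of the site were not searched. They lie at chr5:104434861-104435110 (Spp1), chr7:128129300-128129549 (Itgax) and chr2:150570165-150570414 (Cst7), all on the plus strand and just before the transcribed part of the gene.
Spp1: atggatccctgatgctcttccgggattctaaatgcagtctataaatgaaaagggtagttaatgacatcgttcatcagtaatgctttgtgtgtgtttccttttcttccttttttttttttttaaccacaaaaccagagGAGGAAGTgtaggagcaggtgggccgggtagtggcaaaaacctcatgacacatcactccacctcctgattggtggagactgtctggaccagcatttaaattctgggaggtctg
Itgax: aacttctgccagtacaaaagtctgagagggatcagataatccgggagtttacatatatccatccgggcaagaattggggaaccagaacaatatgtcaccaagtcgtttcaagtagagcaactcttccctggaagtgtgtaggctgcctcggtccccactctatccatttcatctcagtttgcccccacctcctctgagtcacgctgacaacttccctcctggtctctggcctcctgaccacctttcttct
Cst7: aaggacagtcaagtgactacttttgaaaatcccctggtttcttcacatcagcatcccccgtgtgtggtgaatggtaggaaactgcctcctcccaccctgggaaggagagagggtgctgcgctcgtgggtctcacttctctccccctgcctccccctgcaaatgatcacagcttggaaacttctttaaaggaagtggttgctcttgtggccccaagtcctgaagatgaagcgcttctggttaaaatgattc
The Spp1 sequence held 1 match, on the plus strand and starting at position -113 from the start site. Windows from 250 bases before to 50 bases after a start site were given for 8 of the 10 members, 12 windows in all. Tyrobp and Lpl were not among these members. A Spp1 window was the 1 of the 12 with a match to GAGGAAGT or to the E-box CACGTG, a site of the lysosomal factors of the MITF family. Over all 32851 mouse windows of this length, 3.2% held GAGGAAGT on either strand and 7.15% the E-box. A match is a description of letters, and none says only that these letters were not in the window.

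Per cell, the number of activation genes with a UMI ranged from 0 to 6. In the control library 522 microglia-like cells had 0 (55.1%), 225 had 1 and 200 had 2 or more (21.1%, 18.6 to 23.9). In the tomatidine library 448 had 0 (53.9%), 221 had 1 and 162 had 2 or more (19.5%, 16.9 to 22.4). The shares with 2 or more differed by -1.62 points (-5.35 to 2.14), and after thinning, at 11.4% and 10.7%, by -0.716 points (-3.96 to 2.59). Both intervals held 0, but they cover counting error only, and with 1 library per diet the difference was not tested. Axl, found in 30.3% and 31.3% of microglia-like cells, is among the genes counted and did not mark microglia among the named classes. By cluster the unthinned shares were 25.3% and 21.5% in the Selplg/P2ry12 cluster, 10.9% and 11.7% in the Ctss/Lag3 cluster, and 25.3% and 29.8% in the Ccl12/Gpr84 cluster.

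**Figure D5:**
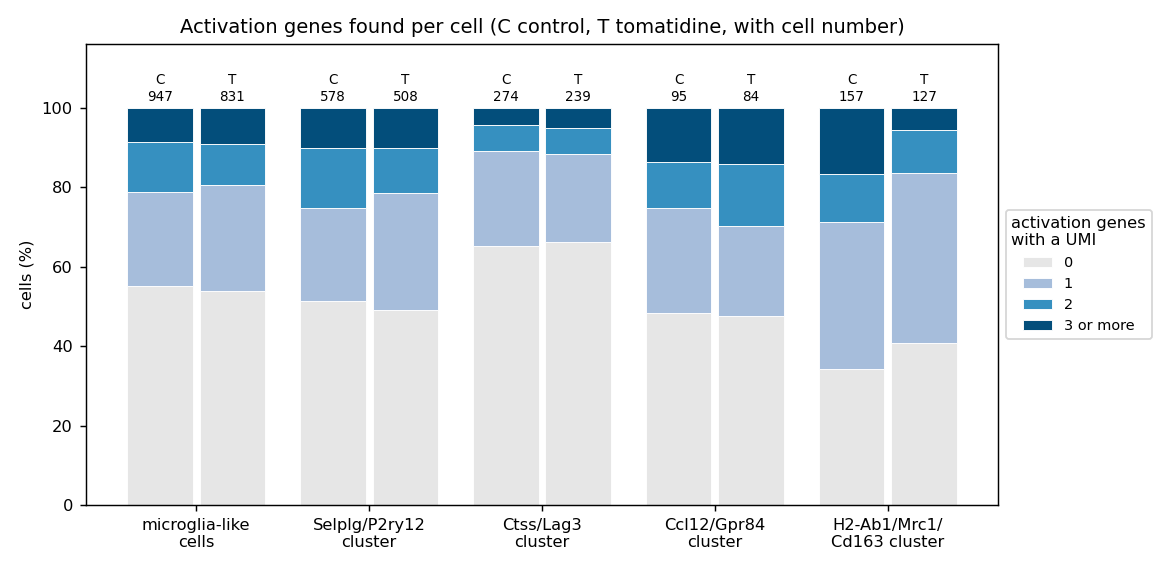
Share of cells (percent) with a UMI of 0, 1, 2 or at least 3 of the 6 activation genes, without thinning, for microglia-like cells, their 3 clusters and the H2-Ab1/Mrc1/Cd163 cluster, with the number of cells above each bar. The 2 libraries had 21.1% and 19.5% of microglia-like cells with 2 or more, and 28.7% and 16.5% of the cells of the H2-Ab1/Mrc1/Cd163 cluster. The 3 microglia-like clusters differ in depth, so their bars are not at a common depth.

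Cells with 2 or more activation genes also differed in other genes of the state. Apoe differed with the number of activation genes a cell held, from 3328 CPM in control cells with 0 to 7564 CPM with 1 and 20382 CPM with 2 or more. In the tomatidine library it went from 2720 to 6370 and 19135 CPM, a log2 difference of 2.61 in control and 2.81 in tomatidine between the outer groups. In the cells with 1 activation gene, astrocyte markers were higher by 1.11 in control and 1.19 in tomatidine, about as much as Apoe (1.18 and 1.23), and their part in that step was not tested. In cells with 2 or more, Tyrobp was 0.56 and 0.60 higher on the log2 scale, and Trem2 by 0.29 and 0.13, so the receptor and its adaptor differed far less than Apoe. Cells with 2 or more were deeper, with medians of 4030 UMIs against 3029 in control and 4102.5 against 2739.5 in tomatidine, and how much of the split this depth makes was not tested.

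Of 23 other DAM genes with enough UMIs, 22 were higher in the cells with 2 or more activation genes in both libraries, against 22.9% of 9957 genes, and 18 of the 23 were past the fold in both, against 2.68%. The median log2 difference of the 23 was 0.86 in control and 0.76 in tomatidine, and -0.07 and -0.07 over all genes tested. Lgals3, which encodes galectin-3, a marker of damaged lysosomes, went from 11.0 to 170 CPM in control and from 4.05 to 146 CPM in tomatidine. Lilrb4a, an inhibitory receptor gene, differed by 3.73 and 4.34 on the log2 scale, and Lyz2, the lysozyme of macrophages, by 2.00 and 2.30. Csf1 (1.33 and 1.49), Cd63 (1.2 and 1.33) and Ctsb (0.98 and 1.06) were also higher. Serpine2 was the exception, at -0.08 and 0.10.

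The resting genes P2ry12 and Tmem119 went the other way. P2ry12, a purine receptor of resting microglia, stood at 3057 and 1447 CPM in control cells with 0 and with 2 or more, and at 2893 and 1295 CPM in tomatidine cells. Tmem119 differed by -0.87 and -0.89 on the log2 scale, and the summed homeostatic list by -0.45 and -0.38. Markers of other cells also differed. Border macrophage markers were at -0.22 and -0.10, oligodendrocyte markers at 0.41 and 0.40 and astrocyte markers at 0.02 and 0.62, and their part in the split was not tested. These genes were named after their values were seen.

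The wider pathway was also followed by lists in microglia-like cells, and most of its genes lay within the fold between the diets. Of 9 early-step DAM genes, 0 were past the fold. Their ratios had a median of -0.09, from -0.45 (H2-D1, a class I antigen-presenting gene) to -0.00 (Lyz2), where the median over 9966 genes was 0.03. All 9 were below 0, but the share of all genes below 0 was not computed. The intervals of Tyrobp, Ctsb, Lyz2 and Timp2 held 0, and the lists were not rerun in the other settings. Of 23 later-step genes tested, 2 were higher past the fold, the members Spp1 and Gpnmb, and 2 were lower. Of all 9966 genes, 3.33% lay past the fold upward and 1.25% downward. The median of the 23 was 0.03. The 2 that were lower were the chemokine genes Ccl3, at 91.8 and 42.1 CPM (log2 ratio -1.12), and Ccl4, at 89.6 and 56.5 CPM (-0.66). Leaving out the members, 16 genes had a median of -0.03.

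None of 13 homeostatic genes was past the fold, with a median of 0.01 and a range from -0.12 (Gpr34) to 0.19 (Tmem119). Likewise 0 of 15 genes of TREM2 signalling passed it, between -0.32 (Bcl10) and 0.24 (Syk, the kinase that binds phosphorylated TYROBP), with a median of -0.05. Ligands, receptors and other partners of the members had 0 of 23 past the fold, from -0.38 (Vldlr) to 0.24 (Lrp8, a receptor for APOE). The 3 genes of the MITF family had a median of -0.15, and 7 genes of the response to tissue dissociation had a median of -0.05 with 0 past the fold, from -0.38 (Egr1) to 0.20 (Junb).

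In the H2-Ab1/Mrc1/Cd163 cluster the members differed more between the libraries. Of the 9, 4 were lower in tomatidine past the fold (Cst7, Itgax, Lpl and Spp1) and 0 were higher, where 9.09% of 2717 genes lay past the fold downward and 10.1% upward. The median log2 ratio was -0.46 over the members and 0.04 over the 2717 genes. Trem2, at 339 and 374 CPM, and Tyrobp, at 1482 and 1450 CPM, had ratios of 0.14 (-0.16 to 0.44) and -0.03 (-0.18 to 0.11).

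Cst7 had 269 CPM in control (229 to 314, 161 UMIs) and 68.7 CPM in tomatidine (47.0 to 97.0, 32 UMIs), a log2 ratio of -1.97 (-2.56 to -1.41). Itgax had 377 CPM (330 to 430) and 135 CPM (104 to 173), a ratio of -1.48 (-1.91 to -1.07). Both were also found in fewer tomatidine cells, Cst7 in 17.8% and 7.87% and Itgax in 25.5% and 9.45%. After thinning the differences were -6.63 points (-13.5 to 0.62) for Cst7 and -9.48 points (-17.3 to -1.14) for Itgax. The ratios were -1.92 and -1.49 without the top cell of each library. Cst7 too was held by few cells, since 1 control cell had 57 of its 161 UMIs (35.4%) and another had 49. Its ratio lay between -2.09 and -1.31 over the settings run, and a ratio without both of these cells was not computed. The cluster can hold different cells in the 2 libraries, and fewer cells with these genes and fewer transcripts per cell cannot be told apart from these sums.

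The lower levels of Lpl and Spp1 rested on few cells, above all on 1 control cell. Spp1 had 1322 CPM in control and 522 CPM in tomatidine (-1.34, -1.55 to -1.13), yet 8.92% and 9.45% of cells were positive. Lpl had 362 and 163 CPM (-1.15, -1.55 to -0.77). That control cell held 619 of the 792 Spp1 UMIs (78.2%) and 149 of the 217 Lpl UMIs (68.7%), along with 71 Itgax, 49 Cst7, 66 Axl and 2408 Apoe UMIs. It carried 24473 UMIs in all with 14 microglial and 2 border macrophage markers, and without it the ratios were 0.79 for Spp1 and 0.46 for Lpl. The top tomatidine cells held 44.9% of the Spp1 and 31.6% of the Lpl UMIs, and without the top cell of each library the ratios were -0.04 (-0.38 to 0.29) and -0.07 (-0.62 to 0.48). The ratio of Gpnmb, at 447 and 427 CPM, was -0.07 with all cells and -1.39 without the top cells, since 1 tomatidine cell held 74.4% of its UMIs.

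The share of cells of this cluster with 2 or more activation genes was 28.7% in control (21.7 to 36.4) and 16.5% in tomatidine (10.5 to 24.2). The difference was -12.1 points (-21.4 to -2.26), or -9.84 points (-18.2 to -0.874) after thinning, at 19.9% and 10.1%. By kind of cell the thinned differences were -1.81 points (-15.0 to 14.5) in cells with T cell markers, -8.27 points (-19.7 to 2.49) in cells with border macrophage markers and -4.59 points (-25.8 to 20.7) in the rest. The rest, in which the shares were highest at 36.2% and 31.6% after thinning, made up 52 of 157 control cells and 23 of 127 tomatidine cells. None of these 3 intervals left out 0, and the part that the makeup of the cluster has in the pooled difference was not tested.

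Between cells with border macrophage markers and cells with neither marker set, the ratios of these 4 genes ran in opposite directions. In cells with border macrophage markers, which include the control cell with 619 Spp1 UMIs, the log2 ratios were -5.29 for Cst7 (-7.59 to -3.71, with 3 tomatidine UMIs), -2.94 for Itgax (-3.79 to -2.18), -3.73 for Lpl (-4.63 to -2.94) and -3.22 for Spp1 (-3.59 to -2.86). In the 52 and 23 cells with neither marker set they were 1.01 for Cst7 (0.16 to 1.85), 0.32 for Itgax (-0.22 to 0.84), 2.16 for Lpl (1.54 to 2.79) and 1.62 for Spp1 (1.29 to 1.94). Of the control cells with border macrophage markers, 1 held 96.0% of the Spp1, 82.3% of the Lpl and 59.2% of the Itgax UMIs. Another held 49.6% of the Cst7 UMIs. In the cells with neither set, 1 control cell held 72.1% and 1 tomatidine cell 63.7% of the Spp1 UMIs. In cells with T cell markers the ratios were -1.18 for Cst7 (-2.82 to 0.25) and -2.93 for Itgax (-8.39 to -0.08). The lower levels in tomatidine, as sums of UMIs, were thus not found in all kinds of cells of the cluster. By unthinned share of positive cells, Cst7 and Itgax were lower in tomatidine in every kind. These ratios rested in part on single cells, and the difference between the kinds was not tested.

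Over the 9 named classes and 2 libraries (18 points of log2(CPM + 1)), the genes with the closest pattern to each member gave a further description of it, in which the points of 1 library share its cells' handling. Trem2 was closest to Gpr34, P2ry13 and Csf3r (Pearson r of 0.996, 0.994 and 0.993), and Tyrobp to C1qa, C1qb and Ly86 (0.995 to 0.993). Cst7 was closest to Slamf8, Cd72 and Myo1f (0.993 to 0.988), and Itgax to Cst7 itself, Ly9 and Slamf8 (0.985 to 0.984). The members that were not highest in microglia-like cells had other neighbours. Apoe was closest to Slc8b1, Plekho2 and Idh2 (0.990 to 0.981), Spp1 to Col15a1, Lox and Tfpi (0.945 to 0.941), and Axl to Plcb3, Mical1 and Suclg2 (0.989 to 0.981). The weakest likeness was that of Lpl, with Ccdc142, H2-DMa and Maml3 (0.918 to 0.909), and of Gpnmb, with Ramp1, Pex11a and Vxn (0.898 to 0.890).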

How the data were processed

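Single-cell RNA-seq was made by the authors with a fixed-RNA probe assay from flash-frozen hippocampus, and the deposited matrices hold counts of UMIs per gene and cell, not normalised, from Cell Ranger (8.0.0 in the submitters' processing notes, 7.1.0 in the matrix header). Total UMIs were 279525565 in the control and 259059908 in the tomatidine library.

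Kept cells (15423 and 14798) had at least 500 UMIs and 250 genes, a complexity (log10 genes over log10 UMIs) above 0.8, and less than 20% of counts from mitochondrial genes. Scrublet (scanpy 1.11.5) called 0 doublets at its own threshold, so the 2% of cells with the highest score were removed (308 and 296). Seurat 5.3.0 (R 4.3.3) clustered the cells on 2000 variable genes, 30 components, reciprocal PCA integration and resolution 0.8, with the members, the lists and sex-linked genes left out of the variable genes. Of 37 clusters 12 stayed unnamed. The naming rule was revised after the clusters were seen, and microglia-like clusters were the same under both versions.

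UMIs were summed per class and library and divided by all UMIs of the class (CPM). Intervals at 95% are exact Poisson for levels, exact conditional binomial for ratios, Clopper-Pearson for shares and Newcombe for differences of shares. Thinned shares are expected values at 1500 UMIs per cell and leave out shallower cells (179 control and 169 tomatidine microglia-like cells). Genes with at least 100 UMIs over both libraries of a class were tested against the fold, a log2 ratio of 0.5, with no p-value. Genes named in the text are the members, the highest and lowest ratio of each list and the 3 genes closest in pattern to each member, and genes named otherwise were picked after their values were seen. The members and lists were chosen with earlier results of these data known. The scripts were tested on simulated data, and sums scaled by edgeR 4.0.16 TMM factors (0.984 and 1.02) were an alternative, as were other filters, doublet handling, integration, resolutions, a marker gate, a mean over cells and thinning depths.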

Additional observations from a re-analysis of the deposited data

Results flagged for a closer look

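Apoe, Lpl and Spp1 had log2 ratios of tomatidine over control on opposite sides of 0 in microglia-like cells and in the H2-Ab1/Mrc1/Cd163 cluster, and the difference between the 2 sets of cells was not tested. Apoe stood at -0.16 in microglia-like cells and at 0.080 in the cluster. Lpl stood at 0.42 and -1.15, and Spp1 at 0.72 and -1.34. For Lpl and Spp1 the ratios in the cluster were 0.46 and 0.79 without 1 control cell, and -0.07 and -0.04 without the top cell of each library.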

How the results depend on the processing

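No paired analysis was possible because each group had 1 library. The 2 members past the fold in microglia-like cells became 0 with no doublet removal, at resolution 0.3, with a marker gate in place of clusters and together with the H2-Ab1/Mrc1/Cd163 cluster. They became 1 (Gpnmb) with no integration, where Gpnmb was lower, with the mean over cells, without the cell with the most UMIs and without the Ccl12/Gpr84 cluster, and 4 (Lpl, Spp1 and Gpnmb higher, Apoe lower) where the interval had to leave out 0. Spp1 reversed to -0.46 with no doublet removal, -0.47 at resolution 0.3, -0.48 with the marker gate, -0.10 without the Ccl12/Gpr84 cluster and -0.46 together with the H2-Ab1/Mrc1/Cd163 cluster. Lpl reversed to -0.20 with the marker gate and Gpnmb to -0.85 with no integration. Ratios whose main interval held 0 also changed sign, Cst7 to between -0.39 and -0.31 and Itgax to between -0.36 and -0.21 in 4 settings each, and Trem2 to -0.07 with the marker gate. In the H2-Ab1/Mrc1/Cd163 cluster Lpl and Spp1 reversed to 0.46 and 0.79 without 1 control cell, and were -0.07 and -0.04 without the top cell of each library. The cause was not tested beyond the cells each alternative adds or removes. The settings without the top cells, without a cluster, with a cluster added, and all those for the H2-Ab1/Mrc1/Cd163 cluster were chosen after seeing the data.

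In all, 74 of 117 recomputed ratios in microglia-like cells stayed within their interval and 43 did not, of which 16 changed sign. Of the differences in the share of positive cells, 108 of 108 stayed within theirs, and 18 of the 108 changed sign. In the H2-Ab1/Mrc1/Cd163 cluster 22 of 36 ratios stayed within their interval and 14 did not, and 5 of the 36 changed sign. The share with 2 or more activation genes differed by -2.32 to -0.123 points in microglia-like cells and by -12.4 to -9.29 points in the H2-Ab1/Mrc1/Cd163 cluster over the settings run, and with Y-linked cells only by -11.0 points (-21.2 to 0.235) in the latter. The number of members highest in microglia-like cells was 5 to 6. Depth limits Gpnmb most, with 68 and 94 UMIs in microglia-like cells.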

Other observations

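Summed MHC class II transcripts (H2-Aa, H2-Ab1, H2-Eb1 and Cd74) in microglia-like cells with 2 or more activation genes, relative to cells with 0, differed by 1.04 on the log2 scale in the control library and by -0.12 in the tomatidine library. The difference between the libraries was not tested. The chemokine genes Ccl3 and Ccl4 were higher in cells with 2 or more activation genes in both libraries, by 2.88 and 2.75 in control and by 1.73 and 1.23 in tomatidine. Ttr, the transthyretin gene of the choroid plexus, stood at 626 CPM in control and 71.7 CPM in tomatidine microglia-like cells, and was lower in the tomatidine library in each of the 9 named classes. Choroid plexus-like cells numbered 339 in control and 35 in tomatidine, and their part in the Ttr difference was not tested.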
